A study of Mus musculus with 4 samples.

Results

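The variable segments of the T-cell receptor were examined here for how evenly they were used. Evenness bears on clonality, that is on how many different T-cell clones a thymus held, but does not count clones. Junction sequences were not read, so different clones with the same segment were not told apart. Transcripts of rearranged and of unrearranged segments were not told apart either. Members were all genes of the count matrices whose symbols begin with Trbv, Trav, Trdv, Trgv or Tcrg-V, 176 of 31053 genes. They comprise 35 segments of the beta locus (Trbv), 128 of the alpha locus (Trav), 6 of the delta locus (Trdv) and 7 of the gamma locus (6 named Tcrg-V and Trgv2, grouped below as Tcrg-V). Trav symbols that also carry a delta name (for example Trav16d-dv11) lie in the shared alpha and delta locus and were counted under Trav.

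Each developing thymocyte joins 1 variable segment per rearranged allele to downstream segments and a constant region, and all its descendants keep that choice. A normal thymus is therefore a mixture of cells with different segments, whereas the descendants of a transformed cell share them. The beta, gamma and delta loci rearrange at the double-negative (DN) stages, and the alpha locus rearranges later, in cells with CD4 and CD8 (double positive, DP), where successive rearrangements can replace an earlier segment with one closer to the constant region.

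Thymocytes of FVB/N mice were profiled by droplet-based 3′ single-cell RNA sequencing in 4 libraries, and whether a library pooled animals is not stated. These were wild type (WT) thymus of 6 weeks, preleukemic Tal1/Lmo2 thymus of 6 weeks, and 2 Tal1/Lmo2 thymuses of 3 months with overt leukemia of immature T cells (T-ALL#1 and T-ALL#2). Per the study's methods, the proximal Lck promoter, which is active in thymocytes, drives Tal1 and Lmo2 in this line, and viable 7-AAD-negative singlets were sorted after red cell lysis. The methods give 6 weeks for all mice, where the labels give 3 months for both leukemias, and the effects of age and of leukemia cannot be told apart. With 1 library each for WT and preleukemic thymus, no test between groups was run, no p-values are given, and the 95% intervals below (Clopper-Pearson for shares, Poisson for counts) cover counting error only.

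Cells with over 500 genes and under 10% mitochondrial unique molecular identifiers (UMIs) were kept, in T-ALL#2, whose matrix holds all 1791965 barcodes, only from the 2700 barcodes with most UMIs. This left 4220 WT, 5576 preleukemic, 5773 T-ALL#1 and 1975 T-ALL#2 cells, with median depths of 3800.5, 4888, 8742 and 17581 UMIs and totals of 24042062 to 70745712 UMIs. At least 3 of 8 T-lineage markers were detected in 97.8% to 99.6% of cells, and 9 to 23 cells per library carried at least 3 of 8 B-cell or 3 of 8 myeloid markers. Any pair of libraries shared 0 to 9 cell barcodes. The WT and preleukemic libraries are labelled male but held Xist at 1380 and 1869 counts per 1000000 UMIs (CPM) and 1 and 5 UMIs of 4 Y-linked genes, so these libraries went against their sex labels, while T-ALL#1 (labelled female) and T-ALL#2 (labelled male) did not. Tal1 stood at 0 UMIs in WT and at 410, 68.3 and 234 CPM in the preleukemic, T-ALL#1 and T-ALL#2 libraries, as labelled. Lmo2 stood at 0.915 CPM in WT and at 4.48, 0.368 and 0.276 CPM in the same order, so it was lower in both leukemias than in WT. Summed levels of 7 B-cell and 8 myeloid markers were 5.57 to 19.9 CPM and 7.04 to 159 CPM, and those of 6 NKT and innate-like markers 21.8 to 60.7 CPM, with the WT library highest for myeloid and NKT markers and at 0 for Ms4a1 and Pax5. Leaving a library out does not alter the values of the others, which are given for each library alone.

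The segments that led the beta locus in the transgenic libraries were Trbv2, Trbv19, Trbv5, Trbv26, Trbv24 and Trbv3, and the last 75 bases of their transcripts are printed so that the segments can be told apart by sequence. They come from the GENCODE M21 annotation of GRCm38 (a C57BL/6J reference, not FVB/N), and all lie on the plus strand of chromosome 6 at chr6:41047340-41047995 (Trbv2), chr6:41178375-41179048 (Trbv19), chr6:41062332-41062803 (Trbv5), chr6:41227505-41227993 (Trbv26), chr6:41218091-41218557 (Trbv24) and chr6:41048290-41048828 (Trbv3). Capitals run from the shared letters TGTGCCAGCAG, which open with the codon of the conserved cysteine where the clonotypic loop begins, to the end of the segment.
Trbv2: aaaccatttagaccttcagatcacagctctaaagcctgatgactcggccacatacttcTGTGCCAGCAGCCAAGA
Trbv19: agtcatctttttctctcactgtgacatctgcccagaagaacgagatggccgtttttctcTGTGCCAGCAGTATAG
Trbv5: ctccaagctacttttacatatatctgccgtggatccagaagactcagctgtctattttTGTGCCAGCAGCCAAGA
Trbv26: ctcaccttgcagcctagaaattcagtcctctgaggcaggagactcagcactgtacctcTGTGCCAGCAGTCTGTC
Trbv24: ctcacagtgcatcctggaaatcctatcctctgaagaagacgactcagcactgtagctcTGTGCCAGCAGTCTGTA
Trbv3: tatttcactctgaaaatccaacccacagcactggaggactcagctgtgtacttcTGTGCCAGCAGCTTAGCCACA
These 11 letters were found on the coding strand in the last 75 bases of 12 of 35 Trbv transcripts (34.3%) and of 12 of all 176 segment transcripts (6.82%), and on the opposite strand of none. Transcripts of the 6 segments were 64.5% to 78.8% identical in pairwise alignments. Trbv24 is annotated as a pseudogene, and its printed stretch holds 1 stop codon (TAG) in the frame of the cysteine codon, where the other 5 hold none. The FVB/N sequence of Trbv24 was not read here.

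The beta locus held a stretch with no transcripts in any library. A contiguous block of 17 segments, Trbv6 to Trbv18 (9 annotated genes and 8 pseudogenes, 109 kb, chr6:41066879-41175608), had 0 UMIs in every barcode of all 4 libraries. In the kept cells a count of 0 allows up to 3 UMIs in 171875578, or 0.0175 CPM. Its neighbors Trbv5 and Trbv19 had 1216 and 4374 UMIs over all barcodes, of 14756 Trbv UMIs in all. Trbv27 and Trbv28 were also at 0 in kept cells, so that 19 of 35 Trbv segments were not detected, against 45 of 128 Trav segments and none of the Trdv or Tcrg-V segments. Inbred mouse strains are known to differ in the Trbv segments that their genome carries, and whether the genome of these animals holds the block was not tested.

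WT thymus used the rest of the beta locus broadly. A Trbv UMI was found in 1204 of 4220 WT cells (28.5%, interval 27.2 to 29.9), and 16 segments were detected. Trbv2 led with 384 positive cells (31.9% of Trbv-positive cells, 29.3 to 34.6), followed by Trbv1 with 139 (11.5%), Trbv3 with 138 (11.5%), Trbv19 with 121 (10.0%) and Trbv24 with 108 (8.97%). Trbv29, Trbv31, Trbv4, Trbv5 and Trbv26 each held 4.98% to 6.81%.

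In the preleukemic thymus 4 segments took most of the beta locus. Of 2170 Trbv-positive cells (38.9% of all cells), Trbv19 was found in 1046 (48.2%, 46.1 to 50.3), Trbv2 in 542 (25.0%), Trbv5 in 322 (14.8%) and Trbv26 in 301 (13.9%). The other 10 detected segments were each in 27 cells or fewer, among them Trbv1, which held 11.5% of Trbv-positive cells in WT and 0.876% here, and Trbv24, with 8.97% and 0.876%. Trbv2 was thus a leading segment in both 6-week-old thymuses, whereas Trbv19 and Trbv5 held 10.0% and 5.48% in WT.

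Each leukemia was narrower still, and the 2 leading segments of each were among the 4 of the preleukemic library. In T-ALL#1, 3773 cells (65.4%) had a Trbv UMI, with Trbv2 in 2934 of them (77.8%, 76.4 to 79.1), Trbv19 in 1719 (45.6%), Trbv24 in 165 (4.37%) and Trbv3 in 40 (1.06%). Trbv26, a leading segment of the preleukemic and T-ALL#2 libraries, had 0 UMIs among 7430 Trbv UMIs of T-ALL#1. In T-ALL#2, 475 cells (24.1%) had a Trbv UMI, with Trbv5 in 279 (58.7%, 54.2 to 63.2), Trbv26 in 157 (33.1%) and Trbv19 in 48 (10.1%). The order of the first 2 depended on the UMIs required, since with at least 2 UMIs of a segment in a cell Trbv26 led with 59 cells (58.4%) and Trbv5 held 36.6%. Trbv2 had 0 UMIs in T-ALL#2, where 3 UMIs of the 646 Trbv UMIs would be the limit that a count of 0 allows.

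**Figure D1:**
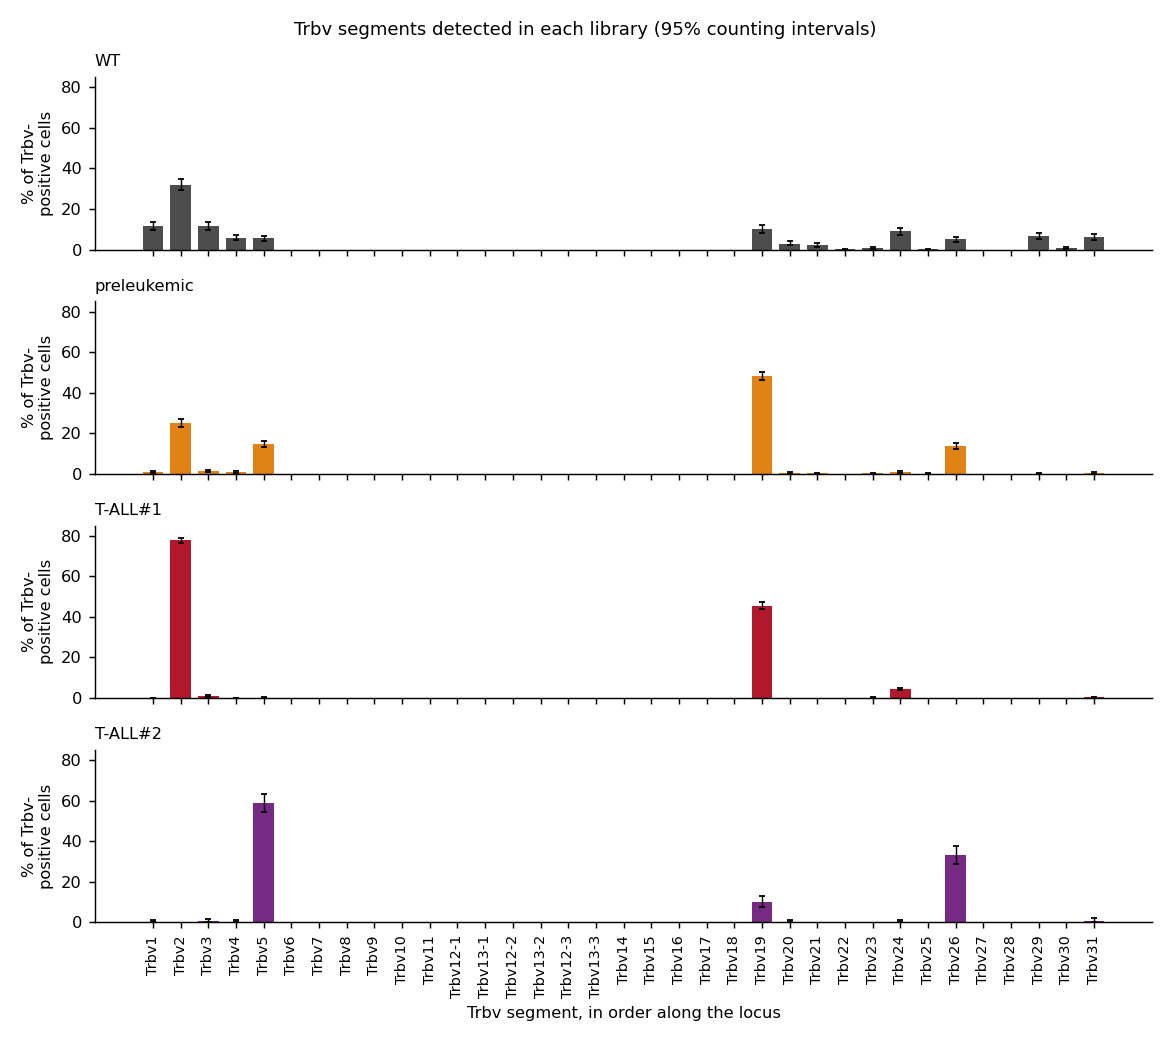
Share of Trbv-positive cells with at least 1 UMI of each Trbv segment (vertical axis, percent, with Clopper-Pearson 95% intervals) in locus order, 1 panel per library. WT cells spread over both ends of the locus with Trbv2 at 31.9%, the preleukemic library has 4 tall bars, T-ALL#1 has Trbv2 and Trbv19, T-ALL#2 has Trbv5 and Trbv26, and Trbv6 to Trbv18 are empty throughout.

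Evenness was measured by the probability that 2 Trbv UMIs from 2 different cells name the same segment, which does not depend on depth by construction, and by its inverse, the effective number of segments. For Trbv this probability was 0.174 in the WT, 0.333 in the preleukemic, 0.524 in the T-ALL#1 and 0.413 in the T-ALL#2 library, which corresponds to 5.74, 3.00, 1.91 and 2.42 effective segments. Both leukemias had a mean of 0.469 ± 0.0787 (SD, n = 2). The WT and preleukemic values lay below both leukemic values, which is a description of single libraries and not a test. With at least 2 UMIs of a segment in a cell, the preleukemic value came close to that of T-ALL#2 (values in the closing section). The 3 segments with most UMIs held 55.9% of WT, 84.3% of preleukemic, 98.9% of T-ALL#1 and 98.0% of T-ALL#2 Trbv UMIs. At an equal total of 646 UMIs, the expected number of segments detected was 14.7, 11.6, 6.12 and 9. Pielou evenness was 0.778, 0.525, 0.365 and 0.468. It was taken over all Trbv UMIs and detected segments of each library, not at an equal total.

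The share of Trbv-positive cells itself followed depth in part. When cells were thinned to 2000 UMIs, which left out 991 WT, 350 preleukemic and 94 T-ALL#1 cells with fewer, 15.4% of the remaining WT, 16.9% of preleukemic, 25.3% of T-ALL#1 and 4.31% of T-ALL#2 cells were positive. Per 1000 UMIs of the beta constant regions Trbc1 and Trbc2, there were 9.92, 12.3, 20.0 and 5.11 Trbv UMIs. Among B or myeloid cells, which should lack beta-chain transcripts, a Trbv UMI was found in 1 of 10 WT (median 8804 UMIs), 2 of 23 preleukemic (4599 UMIs), 3 of 16 T-ALL#1 (4303 UMIs) and 0 of 9 T-ALL#2 cells (4678 UMIs), where 0 of 9 allows a share of up to 33.3%. These counts are too small to set a background tightly.

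Free RNA could be read in T-ALL#2, the library with all barcodes. Trbv5 stood at 8.78 CPM in kept cells and at 9.23 CPM in 65815 barcodes of over 100 and under 500 UMIs, and Trbv26 at 7.26 and 3.74 CPM. A single UMI of Trbv5 in a T-ALL#2 cell therefore does not show by itself that the cell transcribed it. Values that bear on this are the pairs of segments within cells, given next.

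Within single cells, Trbv UMIs named the same segment more often than UMIs of different cells did in WT. Among WT cells with exactly 2 Trbv UMIs, both named 1 segment in 175 of 249 (70.3%, 64.2 to 75.9), set against a between-cell probability of 0.174. The within-cell share was 79.9% in the preleukemic library (398 of 498, between-cell 0.333) and 88.2% in T-ALL#2 (67 of 76, between-cell 0.413). T-ALL#1 differed in that the within-cell share, 57.2% (605 of 1057, 54.2 to 60.2), lay close to its between-cell probability of 0.524. Cells with more than 1 Trbv segment made up 9.22%, 6.87%, 29.4% and 4.00% of Trbv-positive cells in WT, preleukemic, T-ALL#1 and T-ALL#2, and no cell had more than 4.

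**Figure D2:**
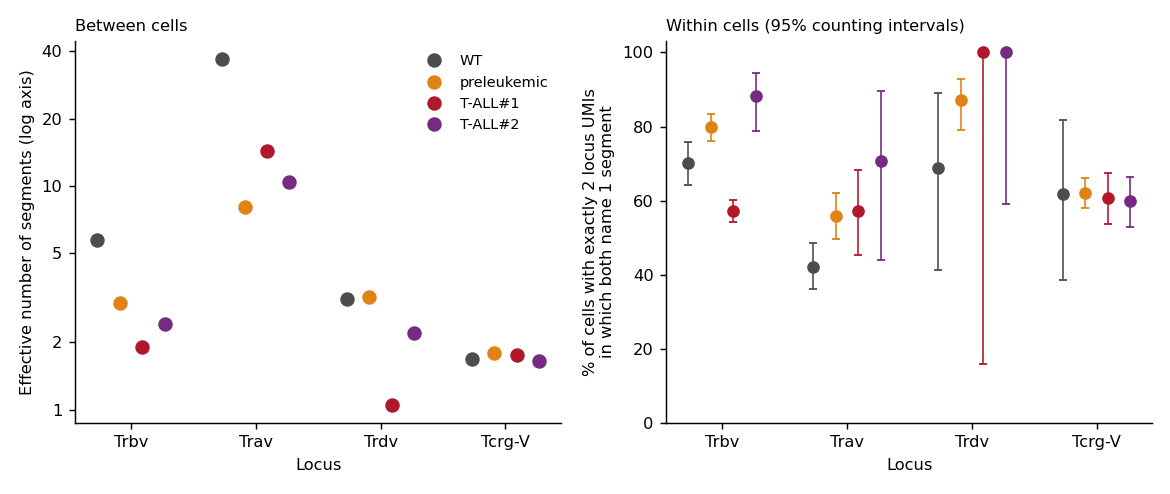
Left, effective number of segments by locus on a log axis, 1 point per library; right, percent of cells with exactly 2 UMIs of a locus in which both name the same segment, with Clopper-Pearson 95% intervals. Trav falls from 37.0 effective segments in WT to 8.06 to 14.3 in the transgenic libraries, Tcrg-V lies between 1.65 and 1.78 in all, and T-ALL#1 has the lowest within-cell agreement for Trbv (57.2%).

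Pairs of leading segments were counted within cells. For each pair the number of cells with both was set beside the product of their shares over all kept cells, a description that takes no account of differences in depth between cells. In T-ALL#1, 1044 cells held both Trbv2 and Trbv19 against a product of 874, which was 60.7% of the Trbv19-positive cells. Trbv24 stood apart from them, with 28 cells shared with Trbv2 (product 83.9) and 7 with Trbv19 (49.1), but 15 cells shared with Trbv3 (1.14). The ratio to the product was 1.19 for Trbv2 with Trbv19, no higher than for Trbv2 with Trbv31 (1.20, 11 cells), and 13.1 for Trbv24 with Trbv3. T-ALL#1 thus held a large group of cells with Trbv2 or Trbv19, apart from a small group with Trbv24 or Trbv3. Trbv2 and Trbv19 were thus detected in many of the same cells, with Trbv2 in 60.7% of Trbv19 cells but in 28 of 165 Trbv24 cells. Whether cells with only 1 of these segments detected also held the other was not tested. The part of free RNA and of doublets in the joint counts was not tested either.

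T-ALL#2 also held separate sets. Only 2 cells had both Trbv5 and Trbv26 (product 22.2) and 1 had Trbv5 with Trbv19 (6.78), whereas 17 had Trbv26 with Trbv19 (3.82), which was 35.4% of Trbv19-positive cells. The Trbv5 UMIs of T-ALL#2 were thus rarely in cells with Trbv26, although free Trbv5 was measured in the same library.

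The preleukemic library held 3 sets. Trbv2 and Trbv5 were found together in 92 cells against a product of 31.3, and Trbv5 and Trbv3 in 6 against 1.56. Trbv2, Trbv3 and Trbv5 lie near each other on the chromosome (positions above), and whether closeness bears on these pairs was not tested. Trbv19 was seldom with Trbv2 (11 cells, product 102), Trbv5 (11, 60.4) or Trbv26 (7, 56.5), and Trbv26 was with Trbv2 in 2 cells (29.3) and with Trbv5 in 1 (17.4). In WT, 27 cells had both Trbv2 and Trbv3 (product 12.6), 2 segments that are neighbors on the chromosome, and each of the other 14 pairs among its 6 leading segments lay below its product.

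**Figure D3:**
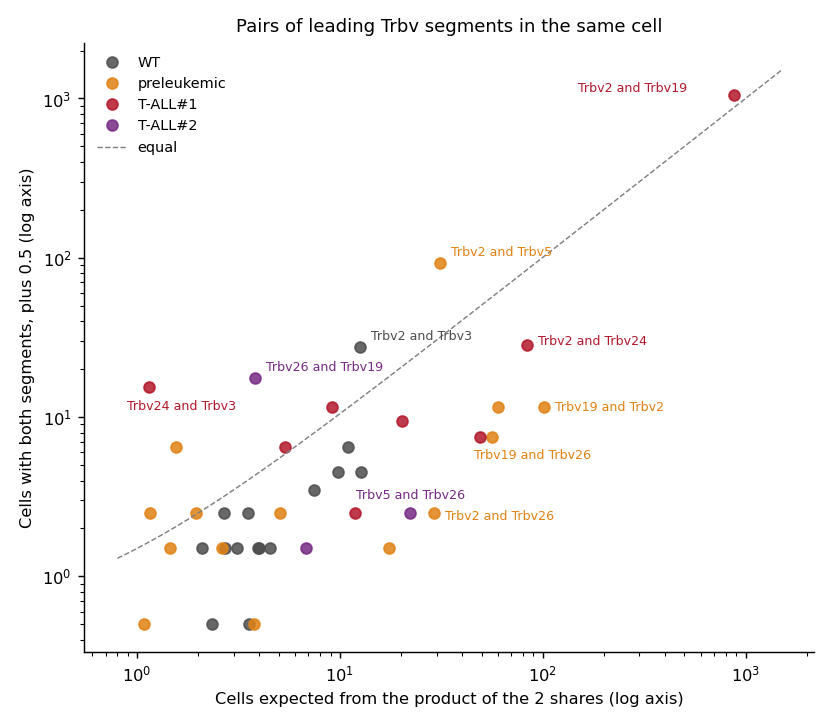
Pairs of the 6 leading Trbv segments of each library (log axes), with the number of cells holding both, plus 0.5, against the product of the shares, and a dashed line where the values are equal. Pairs with a product under 1 are left out. Trbv2 with Trbv19 of T-ALL#1 (1044 cells), Trbv2 with Trbv5 of the preleukemic library (92) and Trbv26 with Trbv19 of T-ALL#2 (17) lie above the line, and most other pairs lie below.

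The constant region gave a readout that had not been used to form these sets. Trbc1 and Trbc2 are the alternative constant regions of the beta chain, each behind its own joining segments, and a rearranged allele uses 1 of them. The sets were formed after the pairs were seen, from cells with the named segments and no other Trbv, and are described without a test. In WT, cells grouped by any of the 5 leading segments had Trbc1 shares of 34.3% to 46.8% of Trbc UMIs, and WT cells with no Trbv UMI had 33.9%.

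In the preleukemic library the sets differed widely. Trbc1 made up 73.0% of Trbc UMIs in 1016 Trbv19 cells, 8.65% in 730 Trbv2 or Trbv5 cells and 53.3% in 284 Trbv26 cells. Of cells with at least 5 Trbc UMIs, Trbc1 held the majority in 929 of 1002 Trbv19 cells (92.7%) and 42 of 722 Trbv2 or Trbv5 cells (5.82%). Mixed cells, with Trbc1 between 20% and 80% of their Trbc UMIs, made up 247 of 280 Trbv26 cells (88.2%), 737 of 1002 Trbv19 cells (73.6%) and 53 of 722 Trbv2 or Trbv5 cells (7.34%), compared with 46.1% to 56.7% in the WT groups. Both constant regions were thus found within most Trbv26 and most Trbv19 cells.

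In T-ALL#1, Trbc1 made up 16.8% of Trbc UMIs in 3551 Trbv2 or Trbv19 cells and 77.3% in 151 Trbv24 or Trbv3 cells, where it held the majority in 147 of 151. T-ALL#2 had hardly any Trbc1. It held 24 Trbc1 UMIs in all, 6 of them in 276 Trbv5 cells and 1 in 186 Trbv26 or Trbv19 cells, beside 21624 and 13973 Trbc2 UMIs. The Trbc1 share in T-ALL#2 was 0.0277% and 0.00716% in these sets and 0.0189% in cells with no Trbv UMI, so both of its sets used Trbc2.

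**Figure D4:**
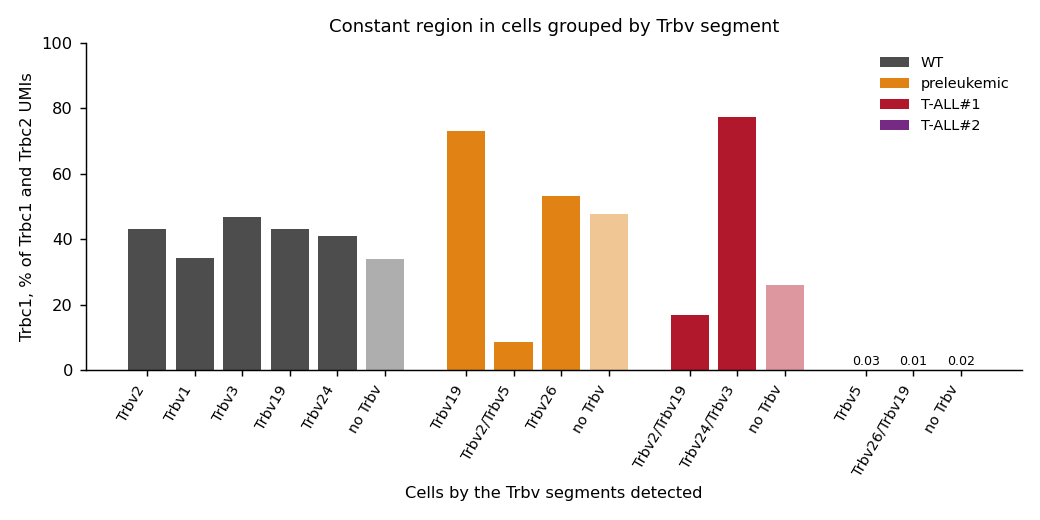
Trbc1 UMIs as a percent of Trbc1 and Trbc2 UMIs (bars from 0), in cells grouped by the Trbv segments detected, with paler bars for cells with no Trbv UMI. WT groups lie between 33.9% and 46.8%, preleukemic groups between 8.65% and 73.0%, T-ALL#1 groups between 16.8% and 77.3%, and T-ALL#2 groups, with their values printed, at or under 0.0277%.

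Some segments of the other loci were unevenly divided among these sets, and others were not. In the preleukemic library, Trdv5, a delta segment that lies beyond the delta constant region in inverted orientation, was found in 371 cells, of which 194 had a Trbv UMI. Trbv19 was present in 188 of these 194 (96.9%, 93.4 to 98.9), against 48.2% of all Trbv-positive cells. Of 190 Trav16d-dv11 cells with a Trbv UMI, 135 had Trbv2 (71.1%, 64.0 to 77.4, against 25.0% overall), 63 had Trbv5 (33.2%) and 18 had Trbv19 (9.47%). Of 178 Tcrg-V6 cells with a Trbv UMI, 73 had Trbv26 (41.0%, 33.7 to 48.6) against 13.9% of all Trbv-positive cells, 72 had Trbv2 (40.4%) and 11 had Trbv19 (6.18%), so that Tcrg-V6 was shared by 2 of the sets. Trav14d-3-dv8 was divided much as all cells were, with Trbv19 in 24 of 49 (49.0%) and Trbv2 in 13 (26.5%).

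Delta segments varied between the sets too. Among preleukemic cells with a Trdv UMI, Trdv1 was in 25 of 51 Trbv26 cells (49.0%) and 15 of 31 Trbv2 or Trbv5 cells (48.4%), but in 21 of 226 Trbv19 cells (9.29%), of which 186 had Trdv5 (82.3%). Trdv3 was in 16 of the 51 Trbv26 cells (31.4%). The delta constant region Trdc stood at 1178 CPM in Trbv19 cells, 437 CPM in Trbv2 or Trbv5 cells and 2645 CPM in Trbv26 cells. Il2ra, the surface marker CD25 of DN3 cells, was at 39.5, 59.5 and 10.6 CPM in the same order.

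In T-ALL#1 the Trbv2 share was similar for several leading segments of other loci. Trbv2 was in 81.4% of Trav19, 76.2% of Trav5-4, 78.1% of Trdv1 and 77.7% of Trgv2 cells with a Trbv UMI, beside 77.8% of all Trbv-positive cells. Trav13-1 differed, as 17 of its 26 cells with a Trbv UMI had Trbv24 (65.4%, 44.3 to 82.8), against 4.37% of all Trbv-positive cells. Tal1 stood at 243 CPM (225 to 262) in Trbv24 or Trbv3 cells and at 45.4 CPM (43.5 to 47.4) in Trbv2 or Trbv19 cells, whereas Cd8a was at 45.0 and 362 CPM and the recombinase gene Rag1 at 24.5 and 157 CPM. The small set was deeper, with a median of 16479 UMIs against 9759, and 7.28% of its cells passed the DP gate (a UMI of Cd4 and of Cd8a or Cd8b1) against 49.5%.

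In T-ALL#2, Trgv2 was found in 46.0% of Trbv5 cells, and 128 of the 132 Trgv2 cells with a Trbv UMI had Trbv5 (97.0%, 92.4 to 99.2). Trdv4 was in 10 of the 12 Trbv26 or Trbv19 cells with a Trdv UMI, while Trdv5 was in 13 of the 19 such Trbv5 cells. Trdc stood at 140 CPM in Trbv5 cells and 15.2 CPM in Trbv26 or Trbv19 cells, and Rag1 at 15.2 and 81.7 CPM. Median depth was 24350.5 UMIs in the first set and 12849 UMIs in the second.

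Leading segments were then read in cells gated by transcripts. DN3-gated cells had no UMI of Cd4, Cd8a or Cd44 and Il2ra above 0.5 in the natural log of 1 plus UMIs per 10000. In T-ALL#1, Trbv2 was in 147 of 197 Trbv-positive DN3-gated cells (74.6%, 67.9 to 80.5) and in 1455 of 1788 DP-gated cells (81.4%, 79.5 to 83.2), so the leading segment spanned both gates. Trbv24 was in 9.64% of the former and 0.783% of the latter, and in 9.75% of Trbv-positive cells with a Tal1 UMI against 0.754% of those without. Median depths were 12340 UMIs with and 6532 UMIs without a Tal1 UMI. Both gates of T-ALL#2 also held its leading segments, Trbv5 with 55.4% and 38.8% and Trbv26 with 34.8% and 48.8% of Trbv-positive DN3-gated and DP-gated cells.

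Within the DN3 gate, cells with at least 1 UMI of Mki67, Top2a, Ccna2, Cdk1 or Birc5 were set beside cells with none, to ask whether cycling and non-cycling DN3 cells used the same segments. In T-ALL#1, Trbv2 was in 102 of 134 cycling cells (76.1%, 68.0 to 83.1) and 45 of 63 others (71.4%, 58.7 to 82.1). In T-ALL#2, Trbv5 was in 53 of 92 (57.6%, 46.9 to 67.9) and 9 of 20 (45.0%, 23.1 to 68.5), and in the preleukemic library Trbv2 was in 33 of 78 (42.3%) and 32 of 85 (37.6%). Cycling cells were deeper, with medians of 15749.5 to 23997 UMIs against 4513 to 12970.5 UMIs. The intervals of these shares overlapped, which is not a test of a difference, and T-ALL#2 had few Trbv-positive cells. Preleukemic Trbv26 cells were rare in the DN3 gate, 5 of 163 Trbv-positive cells (3.07%, 1.00 to 7.01), compared with 24 of 85 in the DP gate (28.2%, 19.0 to 39.0).

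The delta constant region divided T-ALL#2. Cells with a Trdc UMI had a median of 20035 UMIs and cells without one 12225 UMIs. Among Trbv-positive cells with Trdc, Trbv5 was in 241 of 265 (90.9%, 86.8 to 94.1) and Trbv26 in 16 (6.04%). Among those without Trdc, Trbv26 was in 141 of 210 (67.1%, 60.3 to 73.5) and Trbv5 in 38 (18.1%, 13.1 to 24.0). In the preleukemic library Trbv19 led with and without Trdc, at 46.9% and 54.5%, and in T-ALL#1 only 24 cells had a Trdc UMI.

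Alpha segments were diverse in WT and less so in the transgenic libraries. Trav UMIs were found in 29.6% of WT, 23.7% of preleukemic, 9.22% of T-ALL#1 and 10.5% of T-ALL#2 cells. In the same order, 77, 66, 44 and 29 segments were detected among 2144, 2000, 690 and 230 Trav UMIs. At an equal total of 230 UMIs the expected number was 55.0, 35.0, 31.8 and 29. The transgenic libraries thus lay closer to each other than the unequal totals show. The effective number of Trav segments was 37.0, 8.06, 14.3 and 10.4. In WT, Trav14d-3-dv8 led with 118 of 1248 positive cells (9.46%), then Trav3-3 with 93 (7.45%) and Trav16n with 77 (6.17%), so no segment passed 10%.

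In the preleukemic library Trav16d-dv11 was in 465 of 1320 Trav-positive cells (35.2%, 32.6 to 37.9) and Trav16n in 251 (19.0%), with Trav14d-3-dv8 at 8.11%. Transcripts of Trav16d-dv11 and Trav16n were 98.9% identical, and 85 cells had both against a product of 20.9, so reads could be divided between them and their separate levels are uncertain. Segments with a delta name held 48.4% of preleukemic Trav UMIs, against 18.1% in WT, 19.3% in T-ALL#1 and 31.3% in T-ALL#2. Trav16d-dv11 cells carried Trdc in 89.7% of preleukemic cases, beside 81.8% of all preleukemic cells, and in 8 of 76 in WT.

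In T-ALL#1 the leading alpha segments were Trav19 with 77 of 532 positive cells (14.5%, 11.6 to 17.8), Trav5-4 with 61 (11.5%) and Trav13-1 with 41 (7.71%). In T-ALL#2 they were Trav5-4 with 45 of 207 (21.7%, 16.3 to 28.0), Trav14d-3-dv8 with 29 (14.0%) and Trav21-dv12 with 27 (13.0%). No Trav segment reached the shares of the leading Trbv segments in either leukemia. The Trav14 transcripts Trav14d-3-dv8, Trav14n-3 and Trav14-3 were 96.7% to 97.2% identical, so their levels are uncertain too.

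Position along the alpha locus was read as the distance from a segment's end to the constant region Trac on GRCm38. The median over Trav UMIs was 850 kb for WT, 869 kb for preleukemic, 598 kb for T-ALL#1 and 516 kb for T-ALL#2 cells. The 25 segments within 600 kb of Trac held 27.2% of WT, 29.5% of preleukemic and 54.8% of T-ALL#2 Trav UMIs, and 345 of 690 for T-ALL#1. Both leukemias thus had a larger share of Trav UMIs from Trac-near segments than either younger thymus, T-ALL#2 on only 230 Trav UMIs. A few segments weighed heavily, Trav19 with 122 and Trav5-4 with 66 UMIs in T-ALL#1 and Trav5-4 with 48 in T-ALL#2. The distances also depend on how reads were divided among near-identical Trav copies, so a change along the whole locus is not shown.

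Delta segments were most frequent in the preleukemic library, which also had the highest summed level of 7 gamma-delta T-cell markers (Trdc, Tcrg-C1, Tcrg-C4, Sox13, Blk, Maf and Cd163l1), 1721 CPM against 276 in WT, 95.02 in T-ALL#1 and 277 in T-ALL#2. Of this sum, the 4 markers other than constant regions gave 62.7 CPM in the preleukemic library, 14.1 in WT, 13.3 in T-ALL#1 and 68.5 in T-ALL#2, so that without the constant regions T-ALL#2 was as high. All 7 were detected in every library, and the part of mature gamma-delta cells in the delta and gamma values was not tested. A Trdv UMI was found in 13.0% of its cells, in 2.49% of WT, 1.61% of T-ALL#1 and 5.87% of T-ALL#2 cells. WT UMIs were those of Trdv2-2 (59 of 131), Trdv1 (43), Trdv5 (14), Trdv2-1 (10), Trdv4 (3) and Trdv3 (2). Preleukemic UMIs were led by Trdv5 (440 of 929), followed by Trdv1 (209), Trdv2-2 (168), Trdv3 (70), Trdv4 (31) and Trdv2-1 (11). No preleukemic cell had both Trdv5 and Trdv1, where the product of the shares was 9.78.

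T-ALL#1 had nearly a single delta segment. Trdv1 gave 95 of its 97 Trdv UMIs, in 91 cells, with a between-cell probability of 0.959, while Trdv2-2 and Trdv4 had 1 UMI each and Trdv2-1, Trdv3 and Trdv5 none. These Trdv1 UMIs stood beside only 24 cells with Trdc, at 571 Trdv UMIs per 1000 Trdc UMIs, compared with 19.8 to 26.8 in the other libraries. All 91 Trdv1 cells were among the cells without a Trdc UMI. T-ALL#2 had Trdv5 (81 of 127 UMIs), Trdv4 (26), Trdv1 (9), Trdv2-2 (9) and Trdv2-1 (2).

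Gamma segments were found in 48.2% of preleukemic and 43.0% of T-ALL#2 cells, in 15.1% of T-ALL#1 and in 2.58% of WT cells. After thinning to 2000 UMIs these shares were 28.0%, 7.73%, 3.45% and 1.21%. Trgv2 led in each library, with 211 of 278 WT, 5798 of 7905 preleukemic, 1280 of 1807 T-ALL#1 and 1191 of 1625 T-ALL#2 UMIs, or 70.8% to 75.9%. Tcrg-V1 came second with 36, 852, 477 and 433 UMIs, and its transcript was 95.5% identical to that of Trgv2, so the division between them is uncertain.

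A gamma UMI was found in 1 of 23 preleukemic B or myeloid cells and in none of 10, 16 and 9 such cells of the other libraries. In T-ALL#2, Trgv2 stood at 32.9 CPM in kept cells and 25.2 CPM in barcodes of over 100 and under 500 UMIs. A single Trgv2 UMI there does not show by itself that the cell transcribed it. Within kept cells Trgv2 was at 39.0 CPM in Trbv5 cells and 2.47 CPM (7 UMIs) in Trbv26 or Trbv19 cells. The part of free RNA in these values was not tested.

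Of the remaining gamma segments, Tcrg-V6, Tcrg-V4 and Tcrg-V3 separated the preleukemic thymus from both leukemias. Tcrg-V5 did not separate it from T-ALL#1 (0.612 against 0.523 CPM), and Tcrg-V7 had too few UMIs to tell. Tcrg-V6 had 617 preleukemic UMIs and Tcrg-V4 had 545, against 3 and 4 in T-ALL#1 and 0 and 0 in T-ALL#2, and 3 and 20 in WT. Tcrg-V5 had 37 UMIs in T-ALL#1, 25 in the preleukemic library and none elsewhere, Tcrg-V3 had 60 preleukemic and 2 WT UMIs, and Tcrg-V7 had 1 to 8 UMIs in each library. The effective number was 1.65 to 1.78 in all 4 libraries, so evenness of gamma use did not set WT apart from leukemia.

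**Figure D5:**
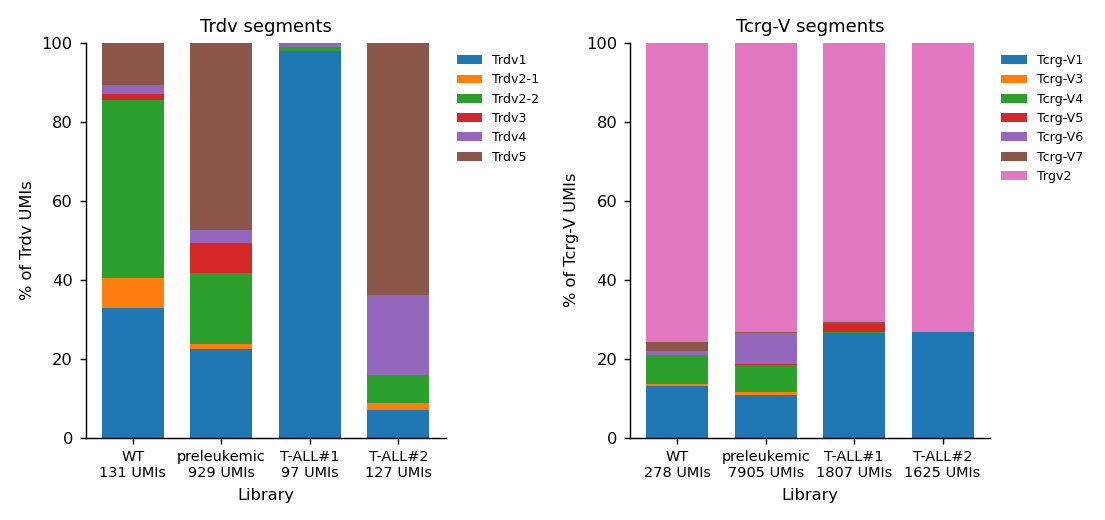
Stacked shares of Trdv UMIs (left) and Tcrg-V UMIs (right) by segment in each library, with the number of UMIs under each bar. Trdv1 fills 97.9% of T-ALL#1, Trdv5 leads the preleukemic library and T-ALL#2, and Trgv2 holds 70.8% to 75.9% of gamma UMIs everywhere.

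Levels in CPM summed over cells were compared between libraries for members with at least 10 UMIs in the pair, and a difference past 2-fold was counted. In bulk sums of this kind, fewer cells with a segment and fewer transcripts per cell cannot be told apart. Between preleukemic and WT thymus, 51 of 82 members were lower (background over all 13891 genes, 10.6%) and 17 were higher (background 9.59%), or 68 in either direction (background 20.2%). Of the tested members, 42 of 56 Trav and 9 of 13 Trbv segments were lower, while 6 of 7 Tcrg-V and 4 of 6 Trdv segments were higher. Among the 82 tested, 5 had 0 UMIs in 1 of the 2 libraries. The median log2 ratio was −1.97 over members and −0.02 over all genes tested.

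Trbv19 stood at 6.20 CPM in WT and 38.8 CPM in the preleukemic library (6.26-fold higher), Trbv5 at 2.87 and 9.08 CPM (3.16-fold) and Trbv26 at 2.99 and 8.84 CPM (2.95-fold). Trbv1 was 12.8-fold lower in the preleukemic library (0.563 against 7.20 CPM), Trbv24 11.1-fold lower and Trav3-3 51.0-fold lower. Trdv5 was 18.5-fold higher, and Tcrg-V6 was 121-fold higher on 3 WT UMIs. Trbv2 lay within 2-fold, at 26.5 CPM in WT and 16.3 CPM in the preleukemic library.

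Set against the preleukemic library, 37 of 54 members were lower in T-ALL#1 (background 21.7%) and 5 higher (background 9.14%), or 42 in either direction (background 30.9%). Among the 54, 8 had 0 UMIs in 1 of the 2 libraries. Trav19 was 23.5-fold higher on 3 preleukemic UMIs, Trbv24 6.09-fold and Trbv2 4.24-fold, and Trav3-3 and Trav5-4 were 4.33-fold and 2.38-fold higher. Trbv26 was at least 208-fold lower and Trdv5 at least 254-fold lower, both with 0 UMIs in T-ALL#1, set at a floor of 3 UMIs for the library. In T-ALL#2, 37 of 46 members were lower (background 32.7%) and 2 higher (background 8.88%), or 39 in either direction (background 41.5%). Among the 46, 12 had 0 UMIs in 1 of the 2 libraries. Trbv2 was at least 197-fold lower and Trbv19 27.0-fold lower than in the preleukemic library, whereas Trbv5 and Trbv26 lay within 2-fold, at 8.78 and 7.26 CPM against 9.08 and 8.84 CPM.

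Set against WT, 65 of 74 members were lower in T-ALL#1 (background 22.0%) and 65 of 72 in T-ALL#2 (background 34.7%), and 6 were higher in each (background 9.16% and 9.91%). In either direction this was 71 in each (background 31.1% and 44.6%). Of the tested members, 22 for T-ALL#1 and 31 for T-ALL#2 had 0 UMIs in 1 of the 2 libraries. Part of the calls of lower members thus followed from the limits alone. The 6 higher members of T-ALL#1 were Trbv2, Trbv19, Trav19, Trgv2, Tcrg-V1 and Tcrg-V5, and those of T-ALL#2 were Trbv5, Trbv26, Trdv4, Trdv5, Trgv2 and Tcrg-V1. The comparisons share the WT or the preleukemic library, so they are not independent of each other. Scaling by TMM factors shifted all log2 ratios up by 0.05 (preleukemic over WT), 0.26 and 0.50 (T-ALL#1 and T-ALL#2 over preleukemic) and 0.31 and 0.55 (over WT). That shift changed the direction of Trbv5, Trbv26, Trdv4 and 2 Trav segments between T-ALL#2 and preleukemic and of 3 members between T-ALL#1 and preleukemic, none of them past 2-fold.

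Other genes of the receptor were read from a list of 15 constant regions, signalling chains and recombination genes. Between preleukemic and WT thymus 4 of 15 were over 2-fold higher (Trdc, Tcrg-C1, Tcrg-C2 and Tcrg-C4) and 4 lower (Trac, Ptcra, Rag1 and Rag2), where 9.59% and 10.6% of all genes were. Against WT, Ptcra was higher in T-ALL#1 and 5 were lower (all genes, 9.16% and 22.0%), and in T-ALL#2 Tcrg-C2 and Tcrg-C4 were higher and 8 were lower (all genes, 9.91% and 34.7%). Of the signalling chains, Cd3d and Cd3g lay within 2-fold of WT in each transgenic library, Cd3e and Cd247 in the preleukemic library and T-ALL#1. The constant region Trac, in CPM, was at 636 for WT, 178 for preleukemic, 275 for T-ALL#1 and 130 for T-ALL#2 cells. Trdc was at 206, 1149, 2.40 and 131 CPM, and Tcrg-C4, a gamma constant region, at 24.7, 257, 47.9 and 61.0 CPM. Trbc1 was at 2671, 2995, 1121 and 0.662 CPM, whereas Trbc2 stayed between 3167 and 4706 CPM. The recombinase genes Rag1 and Rag2 were highest in WT, at 475 and 63.3 CPM, and Dntt, which adds bases at the joins, was at 797, 801, 773 and 345 CPM. Ptcra, the partner of the beta chain before the alpha chain is made, was at 43.5, 8.69, 177 and 18.7 CPM.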

How the data were processed

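Droplet 3′ single-cell libraries of 4 thymuses were analysed. The authors deposited UMI counts per gene and barcode, made with Cell Ranger 3.0.2 (WT, preleukemic, T-ALL#1, called cells) and Cell Ranger 4 (T-ALL#2, all 1791965 barcodes) per the file headers, on mm10 per the labels. Counts were not normalized. Samples were grouped by the labels. Cells with over 500 genes, under 10% mitochondrial UMIs and, in T-ALL#2, a UMI total among the 2700 highest were kept. Doublets were addressed only by an upper gene limit as an alternative, with no doublet caller. Members and lists were chosen with earlier results of these data known, and cell sets by Trbv after the pairs were seen. Named segments were the 3 leading Trbv and Trav per library, all Trdv and gamma segments, any above 10% of locus UMIs, silent Trbv segments, and a list of 15 receptor genes. Further Trbv and Trav segments, and genes that describe the cell sets, were named after their values were seen. CPM used all UMIs of kept cells. Shares have Clopper-Pearson and counts Poisson 95% intervals. Evenness scripts were checked on simulated data. TMM factors came from edgeR 4.0.16 in R 4.3.3. Alternatives were other cell filters, at least 2 UMIs, UMI shares, subgroups, thinning to 2000 UMIs and at least 30 UMIs per pair. Positions and transcripts came from GENCODE M21 (GRCm38), in which all 176 members matched by gene identifier. How reads shared by near-identical segments were assigned is not given in the sources used here. The summed B-cell and gamma-delta marker levels each leave out 1 gene of the list, which is not reported here.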

Additional observations from a re-analysis of the deposited data

Results flagged for a closer look

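Both results concern barcodes of T-ALL#2 that were not kept as cells and entered no comparison, with a signal above the limit that a count of 0 allows. Trbv5 had 412 UMIs there, beside 318 in kept cells. By barcode class it stood at 14.7 CPM in 725 of the 2700 deepest barcodes, which failed the other limits (median 31.3% mitochondrial UMIs), at 17.3 CPM in 5470 further barcodes of at least 500 UMIs (41.8%) and at 9.23 CPM in 65815 barcodes of over 100 and under 500 UMIs (2.15%), against 8.78 CPM in kept cells. Trbv26 had 108 UMIs outside kept cells, at 2.10, 2.46 and 3.74 CPM in the same classes, against 7.26 CPM in kept cells. No Trbv UMI was found in 1772 barcodes of 10 to 100 UMIs. These barcodes held only 40280 UMIs in all, where 3 UMIs would be 74.5 CPM. A count of 0 there thus does not show a level below that of the other classes. The share of Trbv5 among Trbv UMIs was thus 49.2% in kept cells and 62.7% to 81.8% in the classes above 100 UMIs that were not kept.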

How the results depend on the processing

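Of 206 values under alternative settings, 136 stayed within their counting interval, 1 SD or 1.5 times and 70 moved by more. The leading Trbv or Trav segment was the same in 38 of 42 comparisons across settings. With at least 2 UMIs required per segment and cell, the leading Trbv share was 47.0% (Trbv2) in WT, 66.0% (Trbv19) in the preleukemic library and 36.6% (Trbv5) in T-ALL#2, where Trbv26 then led with 58.4%. As shares of locus UMIs the leading Trbv values were 36.3%, 51.0%, 65.7% and 49.2% in WT, preleukemic, T-ALL#1 and T-ALL#2. The leading Trav share was 3.12% (at least 2 UMIs), 15.9% (subgroups merged) and 6.02% (UMI share) in WT, 32.2% (5% mitochondrial limit), 47.9% (subgroups) and 29.2% (UMI share) in the preleukemic library, and 39.4% (at least 2 UMIs) in T-ALL#1. The leading Trav segment became Trav16d-dv11 in WT (7.29%) and Trav21-dv12 in T-ALL#2 (4 of 15 cells) with at least 2 UMIs, and Trav14d-3-dv8 in T-ALL#2 (18.8%) at the 5% limit.

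The Trbv same-segment probability was 0.310, 0.488, 0.614 and 0.511 with at least 2 UMIs, and 0.137, 0.293 and 0.484 when cells rather than UMIs were counted in WT, preleukemic and T-ALL#1. For Trav it was 0.0843, 0.224, 0.127 and 0.170 with subgroups merged and 0.184 in T-ALL#1 with at least 2 UMIs. The leukemic mean for Trbv ranged from 0.413 to 0.524 when either replicate was left out.

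Percent of positive cells with at least 2 UMIs was 6.71, 10.4, 26.6 and 5.11 for Trbv, 6.82, 5.15, 1.23 and 0.759 for Trav, 0.379, 2.28, 0.0520 and 0.456 for Trdv, and 1.26, 26.8, 6.11 and 16.6 for Tcrg-V. Thinned to 2000 UMIs it was 15.4, 16.9, 25.3 and 4.31 for Trbv, 17.1, 11.4, 3.04 and 1.54 for Trav, 1.07, 5.49, 0.446 and 0.953 for Trdv, and 1.21, 28.0, 3.45 and 7.73 for Tcrg-V. At the 5% mitochondrial limit it was 33.4 (WT) and 28.0 (T-ALL#2) for Trbv, 31.1 (WT) and 10.4 (T-ALL#1) for Trav, 3.14 (WT) and 14.2 (preleukemic) for Trdv, and 19.0 (T-ALL#1) and 45.6 (T-ALL#2) for Tcrg-V, and with an upper gene limit 2.09 for Tcrg-V in WT. With at least 30 UMIs per pair, 45 members passed 2-fold between preleukemic and WT (68 otherwise), 45 between T-ALL#1 and WT (71) and 42 between T-ALL#2 and WT (71).

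No paired analysis was possible because the labels number only the leukemic libraries. The smallest totals were 97 (T-ALL#1), 127 (T-ALL#2) and 131 (WT) Trdv UMIs and 230 Trav UMIs (T-ALL#2), which limits those shares most. Intervals cover counting error only, and with 1 library for WT and for preleukemic thymus the spread between animals was not measured. The 3′ chemistry reads variable segments only where a fragment reaches them, and a cell without a UMI of a segment cannot be called negative for it.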
